A study of Mus musculus with 6 samples.

Results

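The ankyrin repeat and SOCS box (ASB) genes that are known for expression in skeletal muscle, Asb2, Asb5, Asb8, Asb10, Asb11, Asb12, Asb14 and Asb15, were followed in mouse gastrocnemius with and without the long non-coding RNA lnc-ORA. The members were taken by symbol, and all 8 were found among the 11815 genes of the deposited table. The knockout (KO) mice carried a CRISPR deletion of 5147 bp that takes in the whole lnc-ORA transcript, on a C57BL/6 background, and were sampled when 15 weeks old. The wild-type (WT) group has the genotype label WT and no further description of the mice. Each group had 3 libraries, KO replicates 1, 2 and 3 and WT replicates 2, 3 and 4. The question of the study was how lnc-ORA bears on the type of muscle fibres. In the mouse the gastrocnemius, in the calf, holds mainly fast fibres. The deletion was made in fertilized eggs and founders were bred with wild-type mice, so it is not limited to muscle, and the labels do not give the number of founder lines.

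An ASB protein holds a target with its ankyrin repeats and binds elongin B and elongin C with its SOCS box. Through them it joins the scaffold cullin 5 and the RING protein Rnf7 into a ubiquitin ligase, which marks the target for the proteasome. In muscle the best known member is Asb2, for which filamins and desmin have been reported as targets and which lowers muscle mass when raised in mouse muscle. The zebrafish counterpart of Asb11 keeps progenitor cells, those of muscle included, from differentiating too early. Asb5 was first described in growing arteries of the rabbit, and Asb15 has been reported to affect protein synthesis in muscle cells.

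The libraries held 55607994 to 68718183 counted reads in KO and 54370181 to 69693905 in WT, recovered from the deposited RPKM values (reads per kilobase of gene length, scaled to the counted reads of the library). The 10 most abundant genes took 50.2% to 53.9% of the reads in KO libraries and 44.4% to 48.3% in WT libraries. The muscle fibre genes Acta1, Ckm, Ttn, Mb and Dmd were all present and summed to 8713 to 9673 RPKM in KO and 9521 to 9785 in WT, and of them Mb, myoglobin, fell in KO (log2 fold change -0.91). Slow-fibre markers varied most within WT, where their 10 genes summed to 1130 RPKM in replicate 2, 190 in replicate 3 and 712 in replicate 4, against 340 to 555 in KO. The level of lnc-ORA was not analysed here, so the genotype labels were taken as given. Whether separate animals gave the libraries is not in the labels, so p-values cover the spread among these libraries, which may be technical.

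Among the muscle ASB genes, Asb10 was higher and Asb11 lower in KO gastrocnemius, while Asb2, the most abundant one, did not pass the test. All 8 genes had enough signal to be tested (1 RPKM or more in 3 or more libraries); of them 1 rose, 1 fell and 6 did not pass. A gene passed at an adjusted p under 0.05 in limma, Benjamini-Hochberg adjusted over all 7574 tested genes. Of those, 17.3% passed in either direction, 3.83% higher and 13.5% lower in KO, so 2 of 8 is close to the background. The median log2 fold change was -0.16 over the 8 genes and -0.09 over all tested genes. The ranges of KO and WT libraries did not overlap for 4 of the 8, which compares with 39.2% of tested genes.

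Asb10, whose human counterpart has been studied in glaucoma, had 16.4, 17.4 and 18.4 RPKM in KO replicates 1, 2 and 3, against 12.1, 13.6 and 13.0 in WT replicates 2, 3 and 4. Every KO library lay above every WT library, and the nearest pair was 2.85 RPKM apart. The means were 17.4 ± 0.985 RPKM in KO and 12.9 ± 0.731 in WT (SD, n = 3 each). The log2 fold change, on the scale of RPKM plus 1, was 0.40 (SE 0.08), with a limma adjusted p = 0.0158. Behind these values were 2715 to 3164 reads in KO and 2069 to 2392 in WT, so counting error was small beside the spread between libraries. The call ended without KO replicate 2, at 0.40 (adjusted p = 0.0535), and without KO replicate 3, at 0.37 (adjusted p = 0.0824).

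Asb11 had 5.65, 6.94 and 7.80 RPKM in KO replicates 1, 2 and 3, against 13.4, 9.17 and 9.62 in WT replicates 2, 3 and 4. The groups did not overlap, and WT replicate 2 stood well above the other WT libraries. The means were 6.79 ± 1.08 RPKM in KO and 10.7 ± 2.30 in WT (SD, n = 3 each). Its log2 fold change was -0.58 (SE 0.15, limma adjusted p = 0.0389). Of the 8 genes it varied most among libraries, by 15.9% of the mean in KO and 21.4% in WT as a coefficient of variation. WT replicate 2 also had the highest sum of slow-fibre markers, 1130 RPKM, against 190 and 712 in WT replicates 3 and 4. The sums in KO replicates 1, 2 and 3 were 510, 555 and 340 RPKM. The part of fibre content in the value of Asb11 was not tested. Without WT replicate 2 the log2 fold change of Asb11 was -0.42 and the call ended (limma adjusted p = 0.0599). It ended as well without WT replicate 3 (adjusted p = 0.054) and without KO replicate 1, 2 or 3 (adjusted p = 0.127, 0.09 and 0.0667), and all log2 fold changes without a library lay between -0.67 and -0.42. With library totals that leave out the 10 most abundant genes the log2 fold change was -0.45 and the adjusted p 0.0542.

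**Figure D1:**
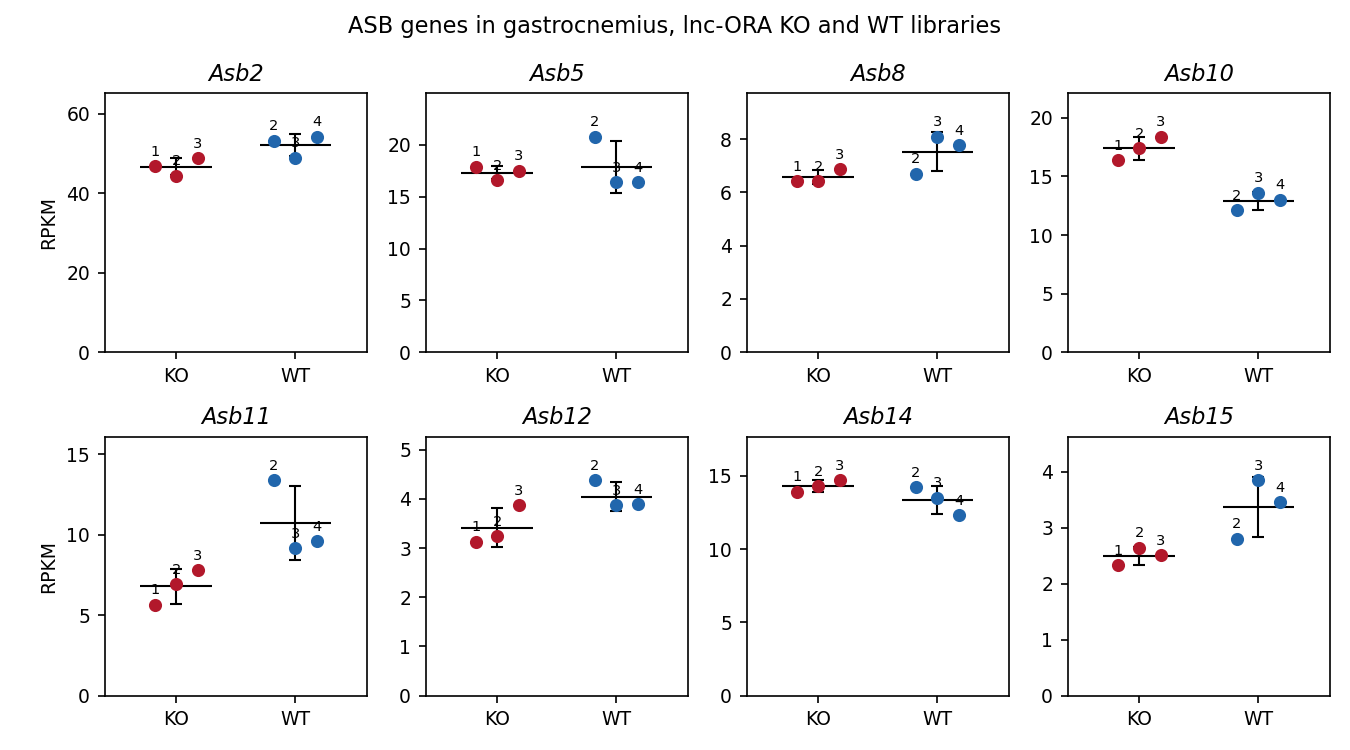
RPKM of the 8 muscle ASB genes (vertical axis, from 0) in each KO and WT library; points are libraries labelled with their replicate number, lines are means and bars SDs over 3 libraries. The KO libraries of Asb10 sit at 16.4 to 18.4 RPKM, above the WT libraries at 12.1 to 13.6, and those of Asb11 at 5.65 to 7.80, below WT at 9.17 to 13.4.

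The promoters of the 2 called genes are shown because Asb10 and Asb11 differed in opposite directions. Each line gives the 250 bases before the annotated start, on the strand of the gene, from RefSeq (GRCm38.p6). Capitals mark the E-box CANNTG, the core sequence bound by myogenic factors of the MyoD family and by many other basic helix-loop-helix proteins. Asb10 lies on the minus strand and its window is chr5:24540979-24541228; Asb11 lies on the plus strand and its window is chrX:164436744-164436993.
Asb10: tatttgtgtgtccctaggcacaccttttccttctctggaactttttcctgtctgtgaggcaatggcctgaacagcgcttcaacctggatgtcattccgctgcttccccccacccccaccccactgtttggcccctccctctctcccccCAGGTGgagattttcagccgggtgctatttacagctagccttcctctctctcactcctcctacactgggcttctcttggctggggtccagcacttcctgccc
Asb11: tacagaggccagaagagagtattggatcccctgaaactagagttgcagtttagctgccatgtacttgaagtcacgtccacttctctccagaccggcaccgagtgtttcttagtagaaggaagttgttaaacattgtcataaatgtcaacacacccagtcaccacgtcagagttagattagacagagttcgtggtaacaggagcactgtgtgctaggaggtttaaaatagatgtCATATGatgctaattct

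Each window held 1 E-box: CAGGTG with its first base 102 bases before the start of Asb10, and CATATG 17 bases before the start of Asb11. CANNTG, searched on both strands, occurs in 66.2% of the 32851 promoter windows of the same length, so its presence separates neither gene from the rest. The narrower form CAGCTG, contained in CANNTG, was in 13% of all windows and in none of the 12 windows of the 8 genes. The motif of MEF2, a factor of muscle differentiation, was in 2.92% of all windows and in 3 of the 12, those of Asb12, Asb14 and 1 of the 3 starts of Asb5. The GC content was 56.8% in the window of Asb10 and 43.6% in that of Asb11. The RNA values do not say which start was used.

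Asb2 was the most abundant of the 8 in every library, with 46.9, 44.5 and 48.9 RPKM in KO replicates 1, 2 and 3 and 53.3, 49.0 and 54.3 in WT replicates 2, 3 and 4. The KO libraries lay below the WT libraries, but by only 0.0348 RPKM between the nearest pair. The means of 46.8 ± 2.22 RPKM in KO and 52.2 ± 2.83 in WT (SD, n = 3 each) gave a log2 fold change of -0.15 (SE 0.08) that did not pass (limma adjusted p = 0.227). Asb2 made up 39.7% to 41.7% of the summed RPKM of the 8 genes in KO and 41.7% to 45.0% in WT. Its mean over all libraries exceeded that of 93.2% of tested genes. On the opposite strand Asb2 overlaps Gm15523, which had 2.61 to 3.05 RPKM in KO and 1.73 to 4.24 in WT, and since the handling of strand is not known here, reads of the pair cannot be told apart.

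Asb5 had 17.9, 16.6 and 17.5 RPKM in KO replicates 1, 2 and 3 and 20.8, 16.4 and 16.4 in WT replicates 2, 3 and 4. The groups overlapped, with WT replicate 2 highest and the other WT libraries lowest, and the log2 fold change was -0.04 (limma adjusted p = 0.842). Asb5 overlaps Spcs3 and 5330439A09Rik, which both lie on the opposite strand, so the same limit on strand holds. Spcs3 had 1.72 to 1.97 RPKM in KO and 1.92 to 2.19 in WT, and 5330439A09Rik was not found by symbol. Asb14 had 13.9, 14.3 and 14.7 RPKM in KO and 14.2, 13.5 and 12.3 in WT, in the same order of replicates. Those groups overlapped too, and the log2 fold change of 0.10 did not pass (limma adjusted p = 0.43). Of the 8, only Asb10 and Asb14 had a log2 fold change above 0 in the reported fit. Over all 7574 tested genes, 2452 lay above 0 and 5122 below. The authors' deposited log2 fold changes put 4 of the 8 above 0 and 4 below. The sign of Asb5 turned in 3 of 13 alternatives: it was 0.07 with equal library medians, 0.07 without WT replicate 2 and 0.11 with totals that leave out the 10 most abundant genes.

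Asb15 had 2.33, 2.64 and 2.51 RPKM in KO replicates 1, 2 and 3, against 2.80, 3.85 and 3.46 in WT replicates 2, 3 and 4. All KO libraries were lower, by 0.162 RPKM between the nearest pair, and the means were 2.49 ± 0.155 in KO and 3.37 ± 0.529 in WT (SD, n = 3 each). The log2 fold change of -0.32 (SE 0.10) did not pass (limma adjusted p = 0.0703). It passed without WT replicate 2, the lowest WT library, at -0.41 (adjusted p = 0.0192).

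Asb8 had 6.42, 6.42 and 6.87 RPKM in KO replicates 1, 2 and 3 and 6.69, 8.09 and 7.77 in WT replicates 2, 3 and 4. KO replicate 3 lay above WT replicate 2, and the log2 fold change of -0.17 did not pass (limma adjusted p = 0.231). Asb12 had 3.13, 3.24 and 3.87 RPKM in KO and 4.38, 3.87 and 3.89 in WT. KO replicate 3 and WT replicate 3 were nearly equal, and the log2 fold change of -0.20 did not pass (limma adjusted p = 0.182). Within groups the libraries of most of these genes lay close together: the coefficient of variation ran from 2.94% for Asb14 to 15.9% for Asb11 in KO and from 5.43% for Asb2 to 21.4% for Asb11 in WT.

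**Figure D2:**
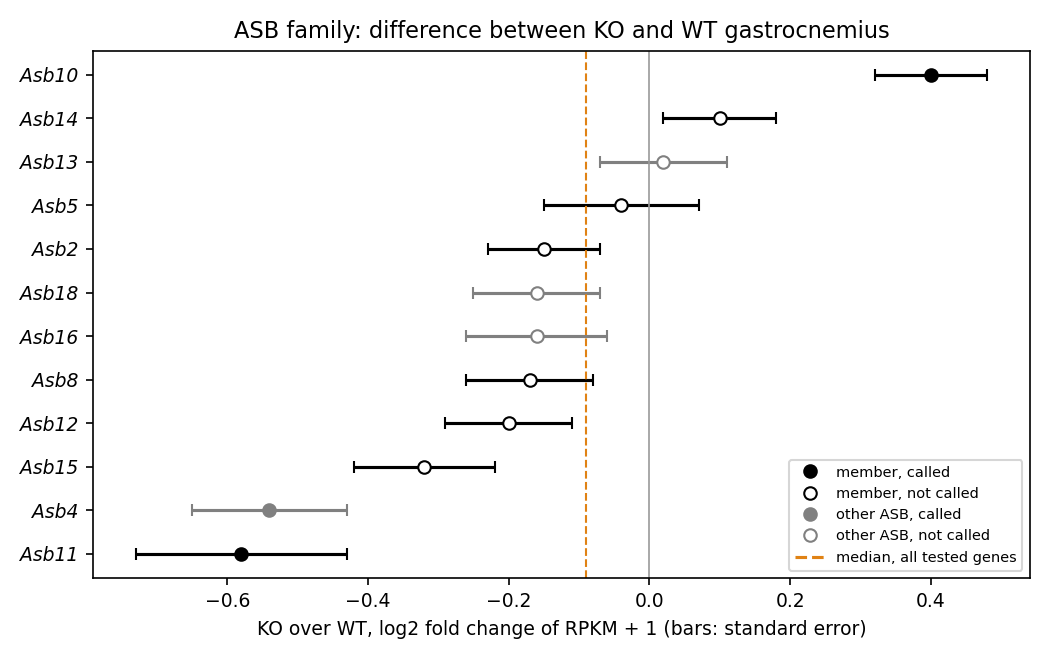
Log2 fold change of RPKM plus 1, KO over WT (horizontal axis), for the 12 tested ASB genes; bars are standard errors, filled points passed at a limma adjusted p under 0.05, and the dashed line is the median of all tested genes at -0.09. Asb10 stands at 0.40, and Asb11 (-0.58) and Asb4 (-0.54) stand lowest.

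By group means, the order of the levels differed between KO and WT in the middle of the family. In KO, Asb2 was followed by Asb10 (17.4 RPKM) and Asb5 (17.3), whose ranges overlapped, then by Asb14 (14.3), then by Asb11 (6.79) and Asb8 (6.57), whose ranges also overlapped, and last by Asb12 (3.41) and Asb15 (2.49). In WT, Asb2 was followed by Asb5 (17.9), then by Asb14 (13.3), Asb10 (12.9) and Asb11 (10.7), each overlapping the next, and then by Asb8 (7.51), Asb12 (4.05) and Asb15 (3.37). The neighbours not named as overlapping did not overlap. Single libraries of the 2 groups shared an order: KO replicate 1 and WT replicates 3 and 4 all began with Asb2, Asb5, Asb10 and Asb14. Asb10 ranked 3, 2 and 2 in KO replicates 1, 2 and 3, and 5, 3 and 3 in WT replicates 2, 3 and 4. Asb11 ranked 6, 5 and 5 in KO and 4, 5 and 5 in WT. Summed over the 8 genes, the RPKM came to 113, 112 and 121 in KO and to 128, 117 and 121 in WT, so the ranges of the summed level overlapped.

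Ratios within a library do not depend on how libraries are scaled. Asb10 was 2.91, 2.51 and 2.36 times as abundant as Asb11 in KO replicates 1, 2 and 3, against 0.91, 1.48 and 1.35 times in WT replicates 2, 3 and 4. Relative to Asb2, Asb10 stood at 0.350, 0.391 and 0.376 in KO and at 0.227, 0.277 and 0.240 in WT. Relative to Asb2, Asb11 stood at 0.120, 0.156 and 0.159 in KO and at 0.251, 0.187 and 0.177 in WT. None of the 3 ratios overlapped between the groups. For Asb10 over Asb11 and Asb10 over Asb2 this was fixed by the levels given above. Every KO library lay above every WT library for Asb10, and below it for Asb11 and Asb2. These pairs were chosen after their values were seen and are given as a description, with no test.

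**Figure D3:**
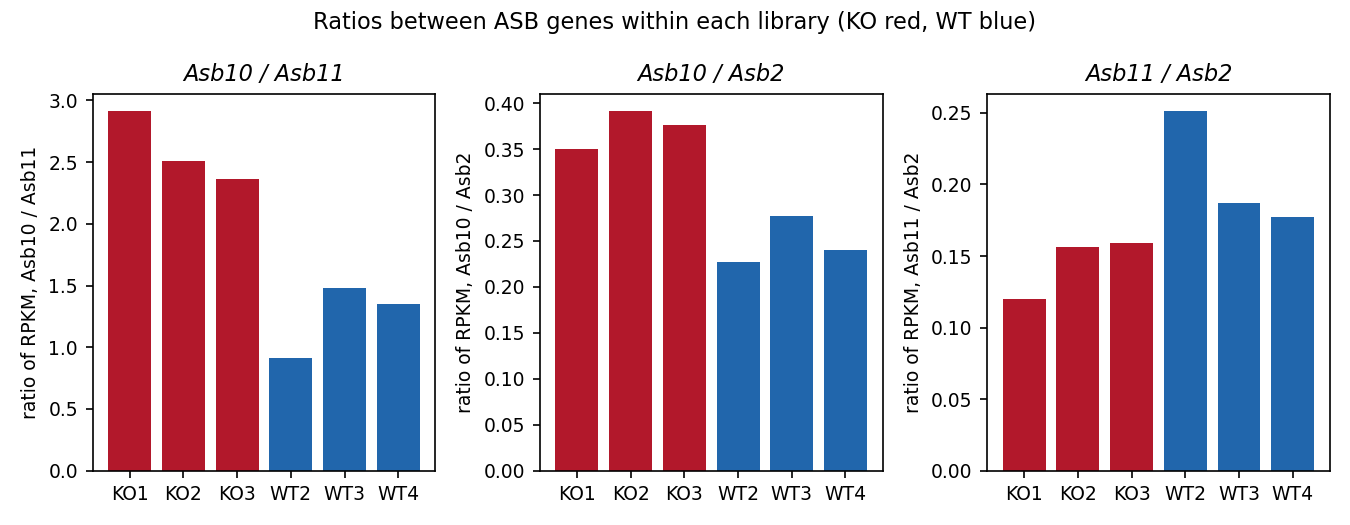
Ratios of RPKM between ASB genes within each library (vertical axes, from 0; bars are single libraries, KO in red and WT in blue). The ratio of Asb10 to Asb11 is 2.36 to 2.91 in KO and 0.91 to 1.48 in WT.

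Scaling bears on the size of these differences. The median log2 fold change of all tested genes was -0.09, and it moved by 0.10 when library medians were made equal and by 0.11 with totals that leave out the 10 most abundant genes. Relative to the median of all tested genes, Asb10 was 0.49 higher and Asb11 stood at -0.49 on the log2 scale. Asb10 was 0.51 with equal library medians and 0.54 with the reduced totals, and it passed in both. Asb11 passed with equal library medians, at -0.48 (limma adjusted p = 0.0359). With the reduced totals it did not pass, at -0.45 (limma adjusted p = 0.0542). Under these scalings the share of all calls that were higher in KO was 47.5% and 52.6%, against 22.1% as reported. The authors' deposited table lists a log2 fold change of 0.42 for Asb10 with an FDR of 0.0835, and of -0.37 for Asb11 with an FDR of 0.279. In the authors' deposited table none of the 8 genes has an FDR under 0.05, as 191 of 11814 gene symbols have. Of the 8, 1 has a p-value under 0.05 there (Asb10, 0.00444), while 22.2% of all its genes have one. The columns do not say which test gave those values.

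**Figure D4:**
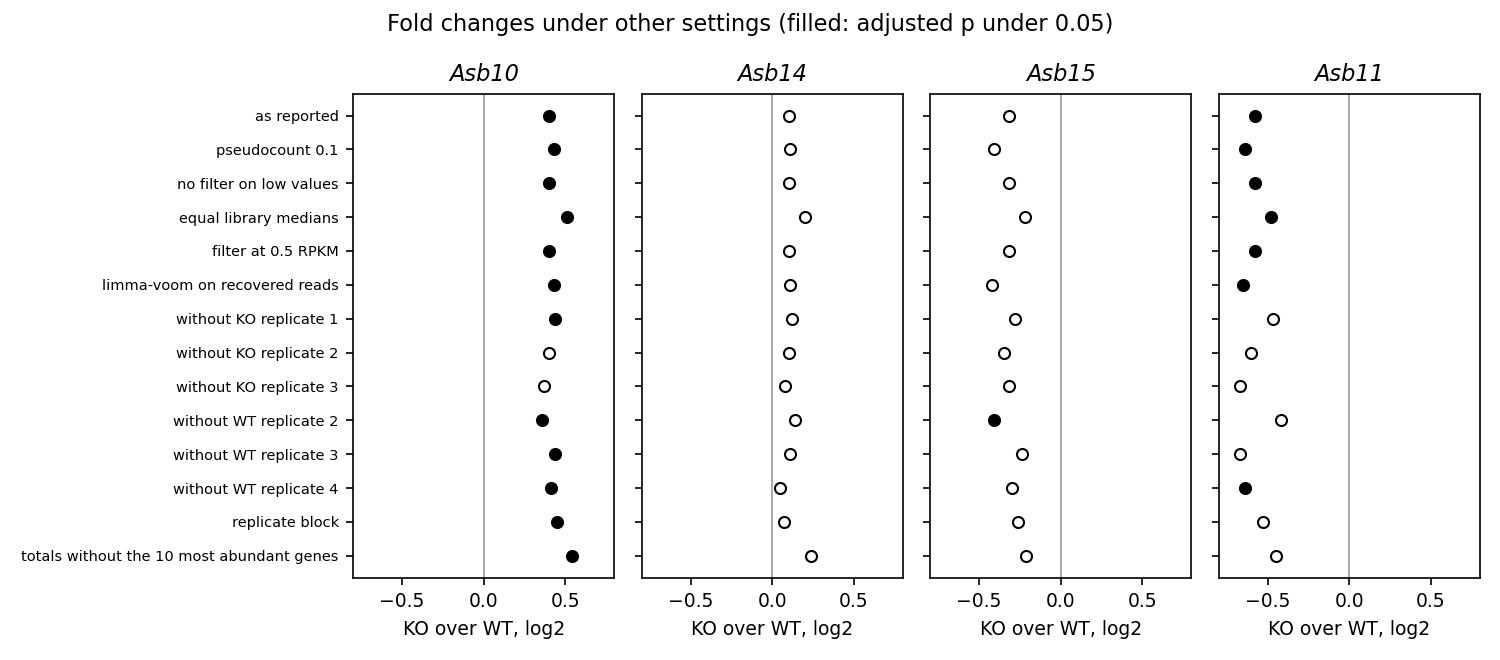
Log2 fold changes, KO over WT (horizontal axes), of Asb10, Asb14, Asb15 and Asb11 in the reported fit and 13 alternatives (rows); filled points have an adjusted p under 0.05. Asb10 runs from 0.36 to 0.54 and Asb11 from -0.67 to -0.42.

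The other ASB genes were expressed at lower levels than most of the 8. Of 10 listed, 8 were found in the deposited table and 4 reached the level for testing. Of those 4, 1 fell and none rose, beside 17.3% of all tested genes that passed. Asb4, studied in mouse vessels and placenta, had 1.08, 1.26 and 1.33 RPKM in KO replicates 1, 2 and 3, against 2.14, 2.76 and 1.84 in WT replicates 2, 3 and 4. All KO libraries were lower, and the log2 fold change was -0.54 (SE 0.11, limma adjusted p = 0.0158). The added 1 RPKM shrinks the fold change of so low a gene. In limma-voom on recovered reads it was -0.86 for Asb4 and -0.65 for Asb11. The call of Asb4 ended without KO replicate 1 (limma adjusted p = 0.0653) and also without KO replicate 3 (limma adjusted p = 0.051). Asb13, Asb16 and Asb18 had means of 3.01, 3.33 and 1.32 RPKM in KO and 2.96, 3.86 and 1.61 in WT, and none passed in limma (adjusted p of 0.92, 0.31 and 0.222). Asb1, Asb3, Asb6 and Asb7 had means of 0.232 to 0.298 RPKM in KO and 0.254 to 0.397 in WT and were not tested. Asb9 and Asb17 were not found by symbol in the deposited table.

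The ligase that the SOCS box joins showed few changes. Of 24 tested genes of the cullin 5 core, its neddylation and its exchange factors, 1 rose, none fell and 23 did not pass. Over all tested genes 17.3% passed. The median log2 fold change of the 24 was 0.00. The scaffold Cul5 had 4.59 ± 0.429 RPKM in KO and 4.74 ± 0.409 in WT (SD, n = 3 each), and its log2 fold change was -0.04 (limma adjusted p = 0.807). The RING subunit Rnf7 was at 0.01 on the same scale, elongin C (Tceb1) at 0.02 and elongin B (Tceb2) at 0.19, and none of these passed in limma (adjusted p of 0.939, 0.859 and 0.366). Nedd8, the ubiquitin-like protein that activates cullins, had 75.0 RPKM in KO and 69.7 in WT (log2 fold change 0.10, limma adjusted p = 0.392).

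Dcun1d2, which helps to attach Nedd8 to cullins, rose: it had 4.73, 4.86 and 4.59 RPKM in KO replicates 1, 2 and 3, against 3.40, 3.47 and 4.03 in WT replicates 2, 3 and 4 (log2 fold change 0.31, SE 0.08, limma adjusted p = 0.0402). The groups did not overlap, and the call ended without any 1 of the KO libraries, WT replicate 2 or WT replicate 3 (adjusted p of 0.0777 to 0.118). Cand2, a muscle exchange factor of cullins, had 4.48 RPKM in KO and 3.71 in WT (log2 fold change 0.22, limma adjusted p = 0.0845). Cops2, a subunit of the COP9 signalosome that removes Nedd8, had 18.5 RPKM in KO and 22.9 in WT (log2 fold change -0.29, limma adjusted p = 0.0614). The list of core genes thus held 12 log2 fold changes above 0 and 12 below, where all tested genes held 2452 above and 5122 below.

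Of 20 genes listed for other SOCS box proteins, 17 were found in the deposited table and 10 were tested. Of those 10, 2 fell, none rose and 8 did not pass, and the median log2 fold change was 0.01. With 17.3% of all tested genes passing, 2 of 10 is close to the background. Cish was below the level for testing, at 0.0907, 2.84 and 2.23 RPKM in KO replicates 1, 2 and 3. It had 0.154, 0.0802 and 0.0713 RPKM in WT replicates 2, 3 and 4. The groups of Cish overlapped, and it did not pass with no filter on low values. Wsb1, a WD-repeat adaptor known for the thyroid hormone deiodinase Dio2, had 1.65, 1.41 and 1.27 RPKM in KO replicates 1, 2 and 3, against 2.17, 2.74 and 3.05 in WT replicates 2, 3 and 4 (log2 fold change -0.57, SE 0.11, limma adjusted p = 0.0119). Its close relative Wsb2 had 3.39 RPKM in KO and 2.70 in WT (log2 fold change 0.25, limma adjusted p = 0.0951). Pcmtd2, which joins a SOCS box to a methyltransferase-like domain, had 2.51, 2.70 and 3.17 RPKM in KO and 4.70, 4.63 and 3.95 in WT (log2 fold change -0.52, SE 0.10, limma adjusted p = 0.0123). The groups did not overlap for Wsb1 or Pcmtd2. The call of Wsb1 ended without KO replicate 3 (adjusted p = 0.0583) and that of Pcmtd2 without KO replicate 1 (adjusted p = 0.0519).

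None of 4 tested genes of reported ASB2 targets passed in limma, where 17.3% of all tested genes did. None had an unadjusted p under 0.05 in limma, and none passed in limma-voom. Des, the intermediate filament of the Z-disc, had 665, 672 and 722 RPKM in KO replicates 1, 2 and 3 and 726, 682 and 677 in WT replicates 2, 3 and 4 (log2 fold change -0.02, limma adjusted p = 0.899). The filamin genes Flna and Flnc were at -0.04 and -0.19 on the log2 scale, with overlapping groups. Flnc, the muscle filamin, ran from 19.0 to 26.6 RPKM in KO and from 18.9 to 36.4 in WT, with WT replicate 2 highest. Jak2, a cytokine receptor kinase, was at -0.14 (limma adjusted p = 0.323). These are RNA levels, and the proteins were not measured.

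**Figure D5:**
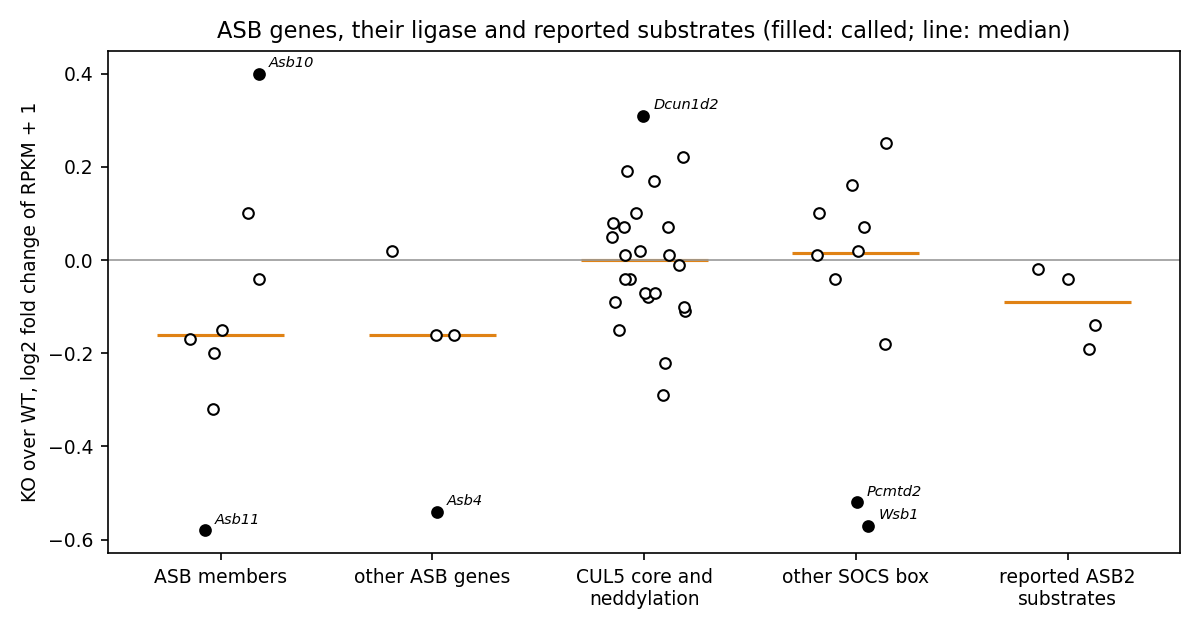
Log2 fold change of RPKM plus 1, KO over WT (vertical axis), of the tested genes of 5 lists; each point is a gene, filled points passed at a limma adjusted p under 0.05, and lines are list medians. Asb10 and Dcun1d2 are the filled points above 0, and Asb11, Asb4, Wsb1 and Pcmtd2 the filled points below.

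The genes whose pattern over the 6 libraries lay nearest to that of Asb10 were Ak1, Smarcd3 and Ccdc43. The measure was the root mean square difference between log2 values centred on each gene's own mean, and it was 0.037, 0.046 and 0.047. Ak1, the muscle adenylate kinase, had 341, 358 and 373 RPKM in KO replicates 1, 2 and 3 and 257, 278 and 290 in WT replicates 2, 3 and 4. Smarcd3, a chromatin remodelling subunit, averaged 28.5 RPKM in KO and 21.4 in WT. Nearest to Asb11 were Gm42917, RP24-389J11.1 and 4930413G21Rik, at 0.080, 0.086 and 0.088. They were low, with means of 2.58, 1.97 and 1.69 RPKM in KO and 4.11, 3.46 and 3.02 in WT. These are descriptions of the same 6 libraries, which fall into the 2 genotypes, so no correlation is given.

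Of the marker lists of other cells, that of Schwann cells differed most between the genotypes (median log2 fold change -1.42). The counts below stand beside 17.3% of all tested genes that passed. All 4 tested Schwann cell markers of 6 listed fell in KO, and the sum of the list was 7.14 to 9.86 RPKM in KO and 31.2 to 49.7 in WT. Of 5 tested endothelial markers of 6 listed, 1 fell (Cldn5), with list sums of 14.4 to 15.6 RPKM in KO and 17.8 to 28.6 in WT. Of 4 tested markers of fibro-adipogenic progenitors of 6 listed, 2 rose (Smoc2 and Col3a1, limma adjusted p of 0.0398 and 0.0345). The sums of that list overlapped, at 21.3 to 25.7 RPKM in KO and 14.0 to 23.5 in WT. Of the smooth muscle and pericyte, satellite cell, macrophage and red blood cell markers, 5 of 6, 1 of 5, 1 of 6 and 4 of 5 listed were tested. None of them passed in limma or limma-voom, and none had an unadjusted p under 0.05 in limma. A single tested marker does not stand for the satellite cell or the macrophage list. The 5 listed adipocyte markers were not found by symbol in the deposited table. Of 10 tested fast-fibre markers 2 fell, the myosins Myh1 and Myh2 (log2 fold changes -1.09 and -0.90), none rose and 8 did not pass, among them the fast myosin Myh4 (0.30, limma adjusted p = 0.0885); the log2 fold change was above 0 for 6 of the 10, with a median of 0.05. Of 10 tested slow-fibre markers 1 fell, the muscle LIM protein Csrp3 (log2 fold change -1.54, limma adjusted p = 0.0161), none rose and 9 did not pass, among them the slow myosin Myh7 (-0.13, limma adjusted p = 0.914). The log2 fold change was below 0 for 9 of those 10, with a median of -0.26. Over all 7574 tested genes it was above 0 for 2452 and below 0 for 5122. Csrp3 had 5.61, 11.1 and 5.21 RPKM in KO replicates 1, 2 and 3, against 33.8, 15.6 and 20.1 in WT replicates 2, 3 and 4, with no overlap. The calls of Csrp3, Myh1 and Myh2 ended without KO replicate 1 (adjusted p of 0.0633, 0.0789 and 0.0944) and without KO replicate 3 (adjusted p of 0.067, 0.0885 and 0.102). Those of Myh1 and Myh2 ended as well without WT replicate 2 (adjusted p of 0.0513 and 0.056) and without WT replicate 3 (adjusted p of 0.0747 and 0.0534). The part of these cells or fibre types in the values of the ASB genes was not tested, and in bulk muscle fewer cells of a type and less RNA per cell cannot be told apart.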

How the data were processed

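Gastrocnemius mRNA of 3 KO and 3 WT samples was fragmented and copied with random hexamers before sequencing, per the labels' protocols; group and replicate number came from the titles. The genome build was GRCm39, per the submitters' processing notes. For the aligner, the counter, the annotation and the use of strand nothing was stated (not given in the sources used here). The authors deposited RPKM values for 11815 genes, under headers that name no unit. RPKM was inferred because 1 length per gene and 1 total per library turned the values into whole reads (within 0.02 of a read) for 11814 genes, the lengths being those of GENCODE M21 or fitted. Other columns of the authors, log2 fold change, log2 CPM, F score, p-value and FDR columns are so named per the file headers.

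The test was limma-trend (R 4.3.3 with limma 3.58.1), applied to log2(RPKM + 1). Genes needed 1 RPKM or more in 3 or more libraries, and the model held genotype alone. A fold change on this scale understates that of low genes. The fit was tested on simulated data with known changes. The alternatives were a pseudocount of 0.1, a filter at 0.5 RPKM or none, equal library medians, limma-voom on the recovered reads, each library left out, and replicate number as a block; library totals without the 10 most abundant genes were added after the data were seen. The members and lists were chosen with earlier results of these data known. The genes named are the 8 members, the other ASB genes, called or abundant members of the lists and the 4 myosins. The nearest patterns of the 2 members with the smallest p are named too. Cand2, Cops2, Wsb2 and Cish were named after their values were seen. A listed gene is not reported here. None of the 50-base stretches of transcripts of the 8 genes occurs in transcripts of other genes in GENCODE M21 (0% shared). Within groups, every pair of libraries differed by more than sampling noise, with chi-square over its degrees of freedom at 25.3 or above. Python 3.11.15, pandas 2.3.3 and numpy 2.4.6 did the sums and matplotlib 3.10.9 the figures.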

Additional observations from a re-analysis of the deposited data

How the results depend on the processing

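The number of tested genes called was 1311, and 471 to 1637 with 1 library left out. Of the 8 muscle ASB genes, 2 were called, and 0 to 2 with 1 library left out; Asb10 was the 1 called with the replicate block and the 1 called with totals without the 10 most abundant genes. In that block fit, which compared genotypes within replicate numbers 2 and 3 only, Asb11 was at -0.53 (limma adjusted p = 0.063). Of the other ASB genes 1 was called, 0 to 1 with 1 library left out, and 2 with no filter on low values (Asb4 and Asb6). Of the cullin 5 genes 1 was called, 0 to 2 with 1 library left out, and 2 each with equal library medians (Cand2 and Dcun1d2), the replicate block (Cops2 and Dcun1d2) and totals without the 10 most abundant genes (Cand2 and Dcun1d2). Of the other SOCS box genes 2 were called, 1 to 3 with 1 library left out, and 3 each with equal library medians and totals without the 10 most abundant genes (Wsb2, higher in KO, besides Pcmtd2 and Wsb1). Of the ASB2 targets 0 were called in limma under every alternative run. The log2 fold change of Asb5 was -0.09 to 0.07 with 1 library left out, and turned from -0.04 to 0.07 with equal library medians and to 0.11 with totals without the 10 most abundant genes. Apart from Asb5, the 8 genes kept their sign in all 13 alternatives. The cause of these shifts was not tested.

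Replicate numbers 2 and 3 occur in both groups. Deviations from the group means correlated at 0.48 for number 2 and 0.27 for number 3, but also at 0.43 for KO replicate 1 with WT replicate 4. The labels give no pairing, so the libraries share only a number. KO replicate 1 and WT replicate 4 are each alone in their block and add nothing to the genotype difference there. The block fit, which called 1548 genes, thus compared genotypes within replicate numbers 2 and 3 only.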
